A study of Mus musculus with 4 samples.

Results

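The cytosolic ribosomal protein genes of mouse splenic regulatory T cells (Treg cells) were examined with and without the histone methyltransferase gene Kmt2d. Members were the protein-coding entries of the count table whose symbol is Rpl or Rps with a number, an optional letter and an optional final l. Rplp0, Rplp1, Rplp2 and Rpsa were added and the Rps6k kinases were left out. The rule gave 82 of 20837 genes, 51 of the large ribosomal subunit (Rpl) and 31 of the small subunit (Rps and Rpsa). RNA was sequenced in 4 bulk libraries of Treg cells sorted from spleen. The 2 WT libraries carry the genotype Foxp3YFP-CreKmt2d+/+ and the 2 cKO libraries carry Foxp3YFP-CreKmt2dfl/fl. Both genotypes hold a Cre recombinase with a YFP reporter expressed from Foxp3, the gene of the lineage-defining Treg factor, and they differ in the loxP-flanked Kmt2d allele. No treatment is recorded, nor the age of the mice that gave the Treg cells. The extraction text deposited with the samples is about macrophages grown from marrow of a different knockout, which goes against the tissue, cell type and genotype recorded for them. Whether a group's libraries stem from different mice is not recorded, so the p-values refer only to the spread among the 4 libraries, which may be technical.

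Every cytosolic ribosome holds 1 copy of nearly all of its proteins. The genes are transcribed at high rates, and surplus proteins are degraded. Their mRNAs carry a run of pyrimidines at the 5′ end, the 5′ TOP, through which mTORC1 and the protein Larp1 control their translation. In T cells, ribosome production rises when cells leave rest and grow, with Myc and mTORC1 as known drivers of it.

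Start-site stretches are given for some of the members that differed between the genotypes at an edgeR adjusted p under 0.05. They are shown because a pyrimidine run is typical of the start of these mRNAs. Each is given 5′ to 3′ on the coding strand, from 40 bases before to 20 bases from the RefSeq start (GRCm38.p6), with the longest pyrimidine run within 25 bases of the start in capitals.
Rps19, chr7:24884552-24884611, plus strand: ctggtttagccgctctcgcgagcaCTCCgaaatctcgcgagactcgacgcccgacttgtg
Rpl28, chr7:4792925-4792984, plus strand: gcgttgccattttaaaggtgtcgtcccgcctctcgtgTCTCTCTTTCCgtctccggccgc
Rplp0, chr5:115559427-115559486, plus strand: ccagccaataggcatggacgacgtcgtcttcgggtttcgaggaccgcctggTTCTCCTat
Rps26, chr10:128626487-128626546, minus strand: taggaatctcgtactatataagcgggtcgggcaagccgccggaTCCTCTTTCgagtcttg
Rpl4, chr9:64173347-64173406, plus strand: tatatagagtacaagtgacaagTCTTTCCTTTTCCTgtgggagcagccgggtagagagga
Rps27, chr3:90213629-90213688, minus strand: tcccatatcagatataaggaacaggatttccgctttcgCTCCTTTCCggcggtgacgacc
The run was 14 bases long in Rpl4, 11 in Rpl28, 9 in Rps26 and Rps27, 7 in Rplp0 and 4 at this start of Rps19. Another run of 4 bases lies nearer this start of Rps19, and only the first is marked. In Rpl4 and at this start of Rps19 the marked run lies wholly before the RefSeq start, outside the annotated mRNA. In Rps26 and Rplp0 it begins after the start, so the capitals do not mark a 5′ TOP in every stretch. The table lists 3 starts for Rps19, and the longest run was 4 bases at the second and 7 at the third.

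Total counts per library ranged from 28442416 to 35560491. Of 13861 genes tested with edgeR's quasi-likelihood test, 4380 differed between the genotypes at an adjusted p under 0.05, with a median log2 fold change over all genes tested of 0.0003. Kmt2d itself had 721 and 704 CPM (read counts scaled to library size by TMM) in WT and 836 and 793 CPM in cKO, a log2 difference of 0.19 (edgeR adjusted p = 0.0375). Counts over a whole gene do not separate the loxP-flanked exons from the rest, so this value checks nothing about the genotype labels. The 8 Treg markers, Foxp3 among them, were all detected and summed to 2390 to 3596 CPM, with 1 higher and 4 lower in cKO, and 6 of 10 pan T cell markers were lower. All 12 neutrophil markers were higher in cKO, with sums of 73.5 and 196 CPM in WT and 632 and 1351 CPM in cKO. Of 14 cycling-cell markers, 13 were higher in cKO, with sums of 1010.0 and 1140.2 CPM in WT and 1728 and 1617 CPM in cKO. Macrophage markers summed to 618 to 1005 CPM (1 of 10 higher), B cell markers to 147 to 292 CPM (1 of 8 higher) and erythroid markers to 182 to 677 CPM (0 of 7 tested changed), with Klf1 at 0 in 1 library. The part of these markers in the results below was not tested. In bulk samples, fewer cells of a type and less RNA per cell cannot be told apart.

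Most ribosomal protein genes were slightly more abundant in the cKO libraries, and few moved by much. Of 81 members tested, 21 rose in cKO (25.9%, against 16.5% of all genes tested) and 2 fell (2.47%, against 15.1%). The other 58 did not pass the threshold. The median log2 fold change of the 81 was 0.13, with an interquartile range of 0.07 to 0.18, against -0.17 to 0.21 for all genes tested. Fold changes were above 0 for 73 members and below 0 for 8. Both cKO libraries lay above both WT libraries for 63 members, with 35.1% of all genes tested doing so. Both lay below for 4 members, Rpl3, Rps27, Rpl38 and Rps16, with 30.9% of all genes tested doing so, and the groups overlapped for 14. Rpl3l, a paralog of Rpl3 typical of striated muscle, failed the filter on low counts with 3 and 2 reads in WT and 7 and 6 in cKO.

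**Figure D1:**
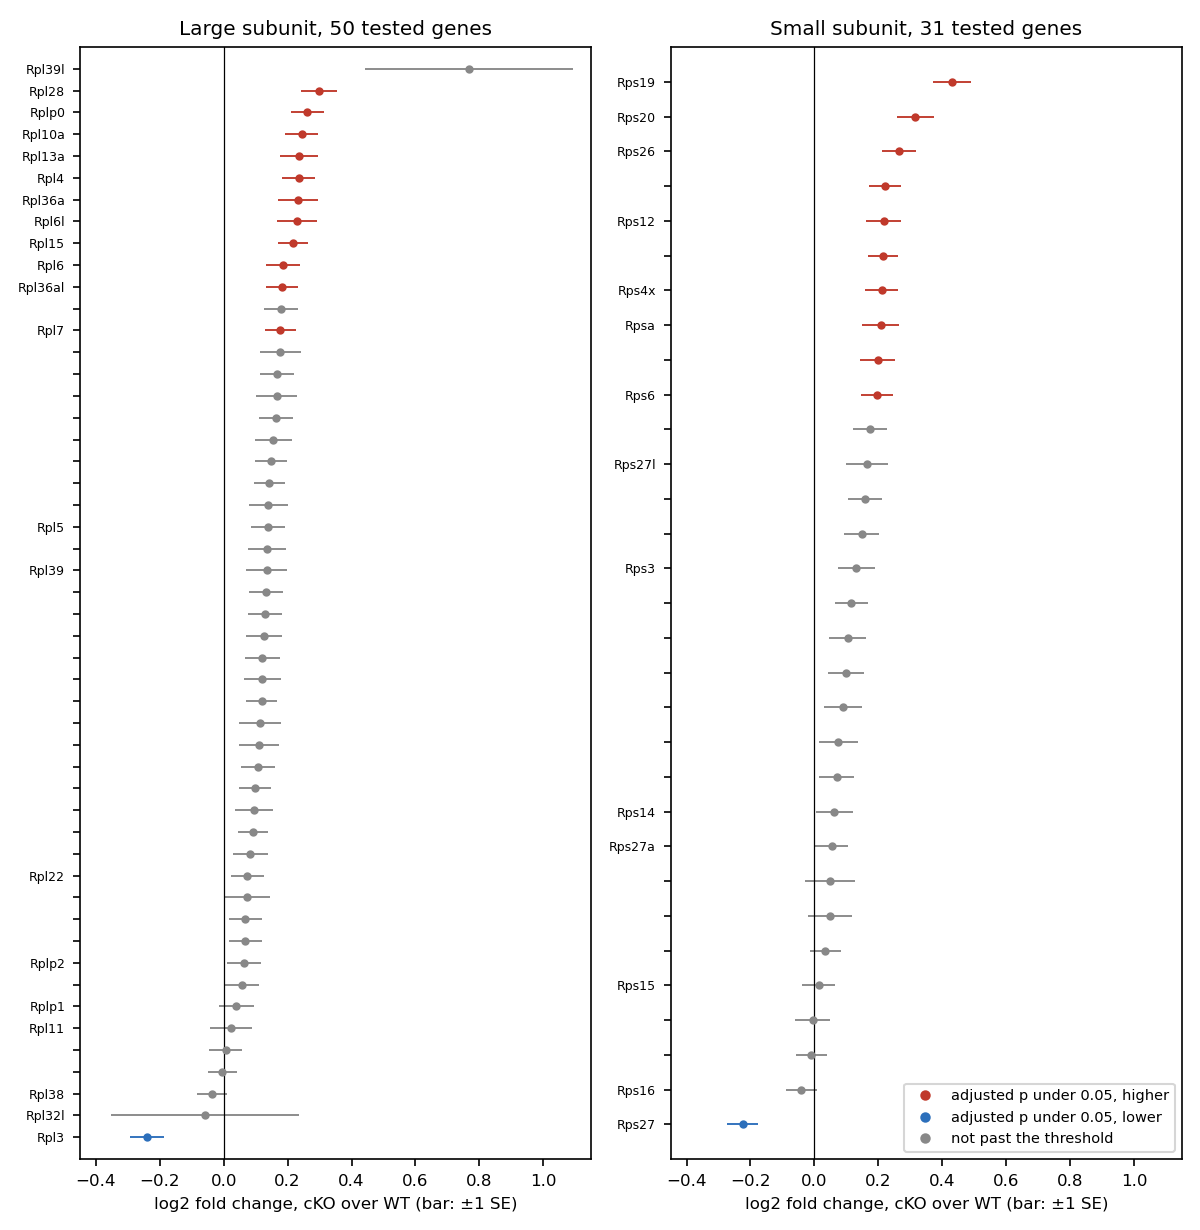
Log2 fold change of cKO over WT for each tested member, large subunit on the left and small subunit on the right, with names for the members the text describes; points are edgeR estimates and bars 1 SE of n = 2 libraries per group. Most points lie between 0 and 0.3, Rps19 stands highest in the small subunit, Rpl3 and Rps27 lie below 0, and the highest point of the large subunit, Rpl39l, has a wide bar.

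The number of calls depended on the libraries and on the scaling. Once WT 1 was left out, 1 member was higher (against 6.28% of all genes) and 0 lower (against 6.97%) by edgeR, and once cKO 2 was left out, 1 was higher (against 8.6% of all genes) and 0 lower (against 8.94%). Once WT 2 was left out, 3 were higher (against 9.6% of all genes) and 0 lower (against 9.58%), and once cKO 1 was left out, 6 were higher (against 7.82%) and 0 lower (against 7.37%). In each of those 4 fits the share of members called higher was below the share of all genes. Scaling by relative log expression gave 11 higher members (13.6%, against 15.4% of all genes) and 2 lower (against 16%), so that the higher share was then near the background. Upper-quartile scaling gave 32 higher (39.5%, against 18.4%) and 2 lower (against 13.5%). Scaling from genes outside the list gave 20 higher (against 16.2%) and 2 lower (against 15.2%). DESeq2 gave 19 higher (23.5%, against 9.05%) and 2 lower (against 11%), limma-voom 23 higher (against 16.5%) and 2 lower (against 15%). No filter gave 24 higher (against 11.4%) and 2 lower (against 11%), and a filter of 5 CPM in 2 libraries 21 higher (against 17.6%) and 2 lower (against 17.1%). Raising the threshold to 0.1 gave 31 higher (against 21.6%) and 2 lower (against 18.8%). With the replicate number as a block, 3 members were higher (3.70%, against 8.3% of all genes) and 0 lower (against 8.23%) by edgeR.

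**Figure D2:**
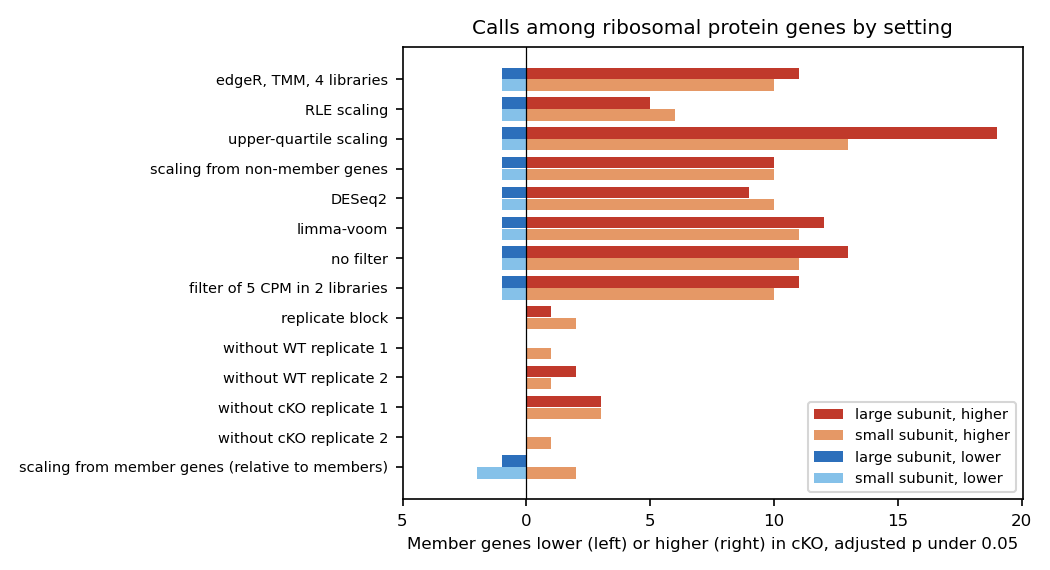
Number of members past an adjusted p of 0.05 by setting, with the large and small subunit as separate bars. Members higher in cKO are drawn to the right of 0 and lower ones to the left. The setting with crossed replicate numbers, which gave 47 higher members (58.0%, against 25.4% of all genes), is not drawn. The 4 fits without 1 library and the fit with the replicate block have 6 or fewer higher members, while upper-quartile scaling has 32.

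Ribosomal protein genes took 7.56% of all counts in both WT libraries (7.56% ± 0.00489, SD, n = 2). They took 8.34% in cKO 1 and 8.74% in cKO 2 (8.54% ± 0.280, SD, n = 2). The groups did not overlap in this share, and the spread within cKO was wider than within WT. cKO 2 exceeded cKO 1 in TMM-scaled CPM for 78 of 81 members, against 6887 of 13861 genes tested. WT 1 exceeded WT 2 for 66 of 81, against 6375 of 13861. The members' share of unscaled counts had the other order in WT, 7.557% in WT 1 and 7.564% in WT 2. The order within WT thus depended on the scaling. Most members shifted the same way between the cKO libraries as well as between genotypes. Within cKO, the summed neutrophil, B cell, erythroid, Treg and pan T cell markers were also higher in cKO 2 than in cKO 1, and the macrophage and cycling-cell markers were lower. Within WT, the Treg, pan T cell and erythroid sums were higher in WT 1 than in WT 2, and the other sums lower.

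The subunits were compared next, since both are made in equal numbers in a growing cell. For comparison, 16.5% of all genes tested were higher and 15.1% lower. Of 50 large-subunit members tested, 11 rose (22%) and 1 fell (2%). Their median log2 fold change was 0.13, with an interquartile range of 0.08 to 0.18. Of 31 small-subunit members, 10 rose (32.3%) and 1 fell (3.23%), with a median of 0.12 and an interquartile range of 0.05 to 0.20. The interquartile ranges overlapped, and no test of the difference between the medians was made. The ratio of small-subunit to large-subunit counts was 0.755 and 0.757 in WT and 0.752 and 0.754 in cKO. Both cKO libraries were thus below both WT libraries in this ratio, by amounts in the third decimal. Median deviations of members from their own mean log2 CPM matched between subunits in each library. They were -0.05 and -0.04 in WT 1 and -0.08 and -0.08 in WT 2 for the large and small subunit. They were 0.01 and 0.01 in cKO 1 and 0.11 and 0.11 in cKO 2. Without cKO 2, the large-subunit median was 0.07 and the small-subunit median 0.08.

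**Figure D3:**
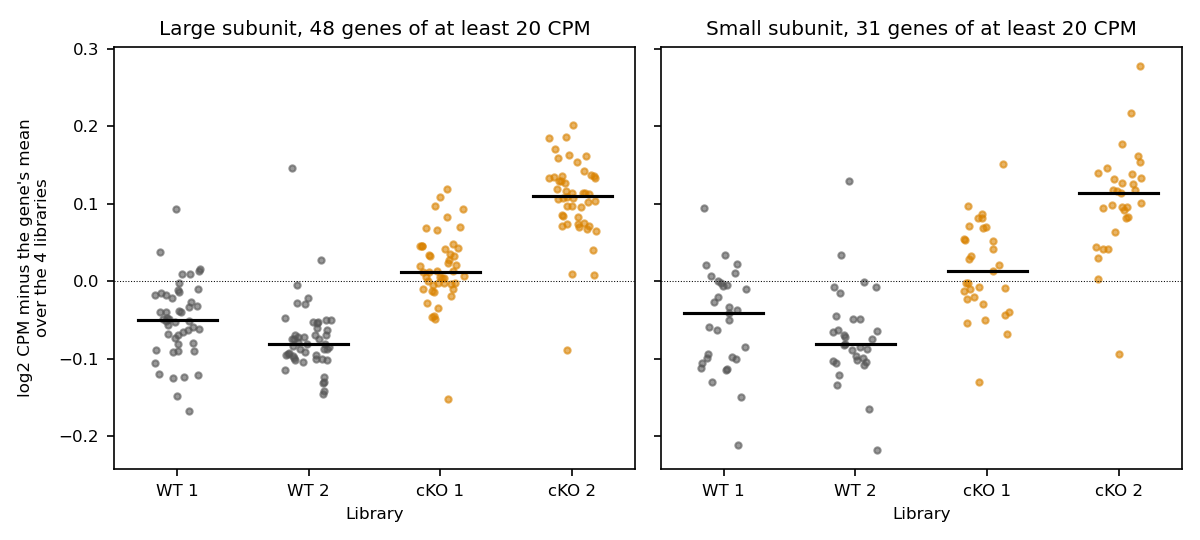
Log2 CPM of each member minus its mean over the 4 libraries, for 48 large-subunit and 31 small-subunit genes of at least 20 CPM; each point is a gene and the black line the median. The medians climb from WT 2 through WT 1 and cKO 1 to cKO 2 in both panels, with the largest step to cKO 2.

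Among small-subunit genes, Rps19 had the largest rise. Rps19 is needed for maturation of the small-subunit rRNA and is the gene most often mutated in Diamond-Blackfan anaemia. It had 982 and 978 CPM in WT and 1262 and 1377 CPM in cKO. Each cKO library stood well above both WT libraries, which were almost equal. The difference was 1.35-fold, a log2 fold change of 0.43 (SE 0.06, edgeR adjusted p = 0.00614). Over the 4 fits without 1 library, the log2 fold change of Rps19 was 0.36 to 0.49. Rps20, a protein of the small subunit's head, had 760.2 and 752 CPM in WT and 901 and 979 CPM in cKO. The groups were apart, with a log2 fold change of 0.31 (SE 0.06, edgeR adjusted p = 0.0121). Rps26, which lies at the mRNA exit channel, had 622 and 621 CPM in WT and 723 and 770.2 CPM in cKO. Its log2 fold change was 0.26 (SE 0.05, edgeR adjusted p = 0.0151), and the groups were apart.

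The remaining small-subunit rises were smaller. Rps4x, the X-linked form of its protein, rose by a log2 fold change of 0.21 (edgeR adjusted p = 0.0287). Rps6, the protein phosphorylated by the S6 kinases downstream of mTORC1, had 1433 and 1431 CPM in WT and 1609 and 1673 CPM in cKO. Its log2 fold change was 0.20 (SE 0.05, edgeR adjusted p = 0.0315). Rpsa, also known as a laminin receptor, had 2625 and 2608 CPM in WT and 2915 and 3126 CPM in cKO. Its log2 fold change was 0.21 (SE 0.06, edgeR adjusted p = 0.0407). Rps12 rose as well, by 0.22. Rps4x, Rps6, Rpsa and Rps12 each had both cKO libraries above both WT libraries, and none of these 4 passed in any edgeR fit without 1 library.

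In the large subunit the rise was led by Rpl28 and the stalk protein Rplp0. Rpl28, a protein found in eukaryotic but not bacterial ribosomes, had 652 and 668 CPM in WT and 782 and 841 CPM in cKO. Its log2 fold change was 0.30 (SE 0.06, edgeR adjusted p = 0.0125), and the groups were apart. The gene overlaps Ube2s on the other strand, and no source used here says whether the counting used strand. Rplp0 anchors the stalk that recruits elongation factors and had 2672 and 2735 CPM in WT and 3191 and 3293 CPM in cKO. Its log2 fold change was 0.26 (SE 0.05, edgeR adjusted p = 0.0149). Its partners in the stalk did not pass the threshold. Rplp1 had 1360.3 and 1345 CPM in WT and 1344 and 1437 CPM in cKO, so that the groups overlapped (log2 difference 0.04). Rplp2 had 744 and 746 CPM in WT and 756 and 801 CPM in cKO (log2 difference 0.06, edgeR adjusted p = 0.425). The stalk holds Rplp1 and Rplp2 in pairs on 1 copy of Rplp0.

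Rpl4, which lines the exit tunnel of the nascent chain, had 2415 and 2373 CPM in WT and 2769 and 2866 CPM in cKO. The groups were apart, with a log2 fold change of 0.24 (SE 0.05, edgeR adjusted p = 0.0201). Rpl10a, part of the mobile L1 stalk, had 761 and 760.3 CPM in WT and 876 and 926 CPM in cKO. Its log2 fold change was 0.24 (SE 0.05, edgeR adjusted p = 0.0177). Rpl15 rose by 0.22 and Rpl13a, known also from interferon-induced translational silencing, by 0.24, with edgeR adjusted p of 0.0192 and 0.0302. Rpl10a and Rpl15 each overlap an annotated gene on the other strand, and Rpl13a hosts 4 small nucleolar RNAs (snoRNAs) in its introns. Rpl36a, Rpl7, Rpl6, Rpl36al and Rpl6l rose by 0.18 to 0.23. Most of the 21 risen members of both subunits passed in no fit that left out 1 library. Calls over all genes also became fewer in those fits.

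**Figure D4:**
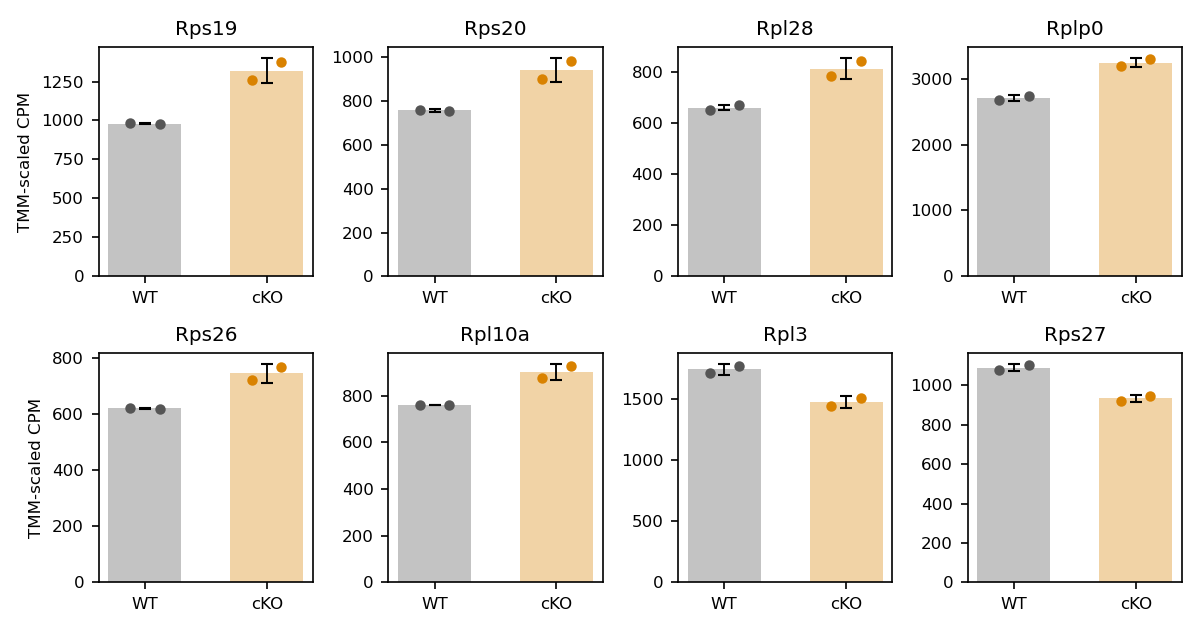
TMM-scaled CPM of 8 named members; bars are means of 2 libraries, error bars SD and points single libraries, with WT in grey and cKO in orange. Rps19, Rps20, Rpl28, Rplp0, Rps26 and Rpl10a are higher in both cKO libraries, and Rpl3 and Rps27 are lower in both.

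Rpl3 and Rps27 fell while most members were higher. Rpl3, a core protein near the peptidyl transferase centre, had 1708 and 1771 CPM in WT and 1441 and 1506 CPM in cKO. The groups were apart, and the log2 fold change was -0.24 (SE 0.05, edgeR adjusted p = 0.0210). Rps27, a zinc-finger protein of the small subunit, had 1076 and 1102 CPM in WT and 921 and 945 CPM in cKO. Again the groups did not overlap, with a log2 fold change of -0.22 (SE 0.05, edgeR adjusted p = 0.0195). Neither passed once any 1 library was left out, with edgeR adjusted p of 0.0607 to 0.122 for Rpl3 and 0.0660 to 0.119 for Rps27, while the fold change stayed negative in each. Of the 50-base stretches of their transcripts, 85.6% in Rpl3 and 98.6% in Rps27 also occur in another annotated gene. Some members that rose had similar sharing, with 90.1% in Rps12, 88.1% in Rpl10a and 84.6% in Rps6. How the authors' counting treated shared reads bears on all of these values. The 18 coding members above 80% had a median log2 fold change of 0.13. Of these, 5 were higher and 2 lower (against 16.5% and 15.1% of all genes tested).

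A scaling on the members themselves, chosen after the data were seen, sets each gene against the ribosomal protein genes as a body and shifts the median of all genes by -0.13. On that scale Rps19 was higher by 0.30 and Rps20 by 0.18, with edgeR adjusted p of 0.00515 and 0.0350. Rpl3 was lower by a log2 difference of -0.37, Rps27 by -0.35 and Rps16 by -0.17, with edgeR adjusted p of 0.00256, 0.00341 and 0.0478. Rps16 had 1153 and 1175 CPM in WT and 1113 and 1149.8 CPM in cKO on the usual scale, where it did not pass (log2 difference -0.04). Of all genes tested, 9.33% were higher and 21.3% lower on that scale, and of the members 2 were higher and 3 lower, so 76 did not pass.

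Several members with known roles outside the ribosome or in disease did not pass, while Rps19, Rps6, Rpsa, Rplp0 and Rpl13a, described above, did. Rpl5 and Rpl11, which bind and inhibit Mdm2 when ribosome assembly is disturbed, had log2 differences of 0.14 and 0.02. Rpl5 had 1613 and 1575 CPM in WT and 1712 and 1800.2 CPM in cKO, and Rpl11 had 855 and 799 CPM in WT and 805 and 875 CPM in cKO. The groups were apart for Rpl5 and overlapped for Rpl11. Rps14, the gene linked to the anaemia of the 5q- syndrome, had 1406 and 1346 CPM in WT and 1386 and 1488 CPM in cKO (log2 difference 0.06). Rpl22, whose loss in mice blocks development of alpha-beta T cells, had 428 and 421 CPM in WT and 436 and 459 CPM in cKO (log2 difference 0.07). Rps3, also described as a partner of the NF-kB subunit Rela, had a difference of 0.13, and Rps27a, made as a fusion with ubiquitin, of 0.05. Of these 6 genes, 0 passed, with edgeR adjusted p from 0.10 to 0.852.

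Levels per length were compared over the 4 libraries as CPM per kilobase of a GENCODE M21 transcript. Among 77 coding members with at least 100 CPM, the level per length ran from 229 to 2930 CPM per kilobase, with a median of 1267 and an interquartile range of 948 to 1762. The highest were Rps27 with 2929.9, Rplp1 with 2749, Rps15 with 2487, Rps14 with 2356 and Rpl13a with 2232 CPM per kilobase. Of these 5, Rps27 fell, Rpl13a rose, and the groups overlapped for Rplp1, Rps15 and Rps14. The lowest of the 77, Rps20, has a single coding model of 3706 bases, which lowers its value per length. Small-subunit members had a median of 1448 CPM per kilobase and large-subunit members 1194. Fold change showed little relation to level. Across 79 coding members, Spearman's rho of log2 fold change with mean CPM was 0.07, and with transcript length 0.30. The genes share their libraries, so these are descriptions only.

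**Figure D5:**
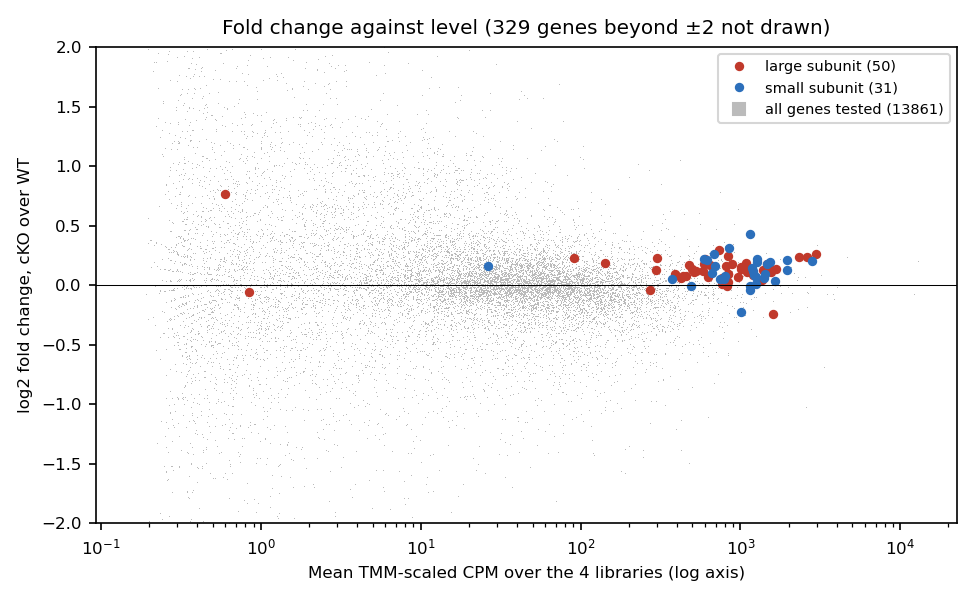
Log2 fold change of cKO over WT against mean TMM-scaled CPM (log axis) for all 13861 genes tested in grey, large-subunit members in red and small-subunit members in blue; 329 genes beyond 2 in either direction are not drawn. Nearly all members sit at the right of the plot in a narrow band around 0.13, with Rpl39l and Rpl32l far to the left.

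Paralogs named with a final l were a small part of most pairs. Their coding starts are shown because reads can be assigned to a pair only where the letters differ. The first 90 coding bases are given 5′ to 3′ from GENCODE M21 transcripts, with capitals where a paralog differs from its partner.
Rps27: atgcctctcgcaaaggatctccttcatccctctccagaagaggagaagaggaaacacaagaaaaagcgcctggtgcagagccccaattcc
Rps27l: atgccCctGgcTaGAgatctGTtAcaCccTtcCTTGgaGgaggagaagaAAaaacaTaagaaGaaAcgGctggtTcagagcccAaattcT
Rpl36a: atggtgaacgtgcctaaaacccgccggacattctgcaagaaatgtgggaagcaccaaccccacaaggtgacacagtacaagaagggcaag
Rpl36al: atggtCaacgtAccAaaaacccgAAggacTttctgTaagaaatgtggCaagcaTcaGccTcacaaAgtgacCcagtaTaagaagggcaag
Rps27l and Rps27 differ at 60 of 252 coding bases, and Rpl36al and Rpl36a at 39 of 318. A further copy, Rps27rt, which the rule does not take in, has the same 252 coding bases as Rps27. Rps27rt had 40.3 and 45 CPM in WT and 44 and 40.6 CPM in cKO, a log2 difference of -0.01.

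Rps27l, which is induced by p53, had 24.2 and 25.4 CPM in WT and 27.5 and 28 CPM in cKO. It did not pass the threshold (log2 difference 0.16, edgeR adjusted p = 0.114). Its share of the counts of Rps27 and Rps27l together was 2.20% and 2.25% in WT and 2.90% and 2.88% in cKO, so the groups did not overlap. That difference in share was not tested. Rpl36al held a far larger share of its pair with Rpl36a, 30.9% to 33.2% over the 4 libraries. Rpl36al had 129.9 and 135 CPM in WT and 148 and 153 CPM in cKO, and Rpl36a had 282 and 272 CPM in WT and 309.8 and 341 CPM in cKO. Both rose, by log2 fold changes of 0.18 and 0.23 (edgeR adjusted p = 0.0410 and 0.0382), and the share overlapped between the groups. Rpl39l, best known from testis, had 18 and 11 reads in WT and 23 and 25 reads in cKO, 0.0776% to 0.159% of the counts of its pair with Rpl39. Its log2 difference of 0.77 was the largest of the 81 members tested and did not pass (SE 0.33, edgeR adjusted p = 0.133). Rpl32l had 22 to 34 reads per library, and its groups overlapped. Rpl6l held 7.55% to 7.96% of its pair with Rpl6. GENCODE lists Rpl6l and Rpl32l as processed pseudogenes, so reads counted for them may belong to their partners.

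Sequence around the start was searched in RefSeq promoters, 250 bases before to 50 after each start, which were found for 61 of 82 members and 27025 genes in all. A run of at least 8 pyrimidines on the coding strand within 25 bases of the start was present in 33 members (54.1%), against 22.3% of all genes. The ETS and GABP core CCGGAAG, on either strand, was in 25 members (41%), against 9.93% of all genes. The YY1 core AAGATGGC was in 5 members (8.2%, against 3.19%), the E box CACGTG in 6 (9.84%, against 8.09%) and the TATA box TATAAA in 7 (11.5%, against 15.7%), each on either strand. Motifs were allowed to overlap, and a match is only a match of letters. Members with and without the pyrimidine run had median log2 fold changes of 0.13 and 0.12, which were 0.13 and 0.14 in the large subunit and 0.16 and 0.09 in the small. Members with and without the ETS core had medians of 0.12 and 0.13, which were 0.12 and 0.14 in the large subunit and 0.13 and 0.07 in the small. Among coding members, 29 host a snoRNA in an intron, with a median of 0.14 (8 higher, 1 lower). The 50 that do not had a median of 0.12 (12 higher, 1 lower). Of all genes tested, 16.5% were higher and 15.1% lower. Split by subunit, hosts and other members had medians of 0.14 and 0.12 in the large subunit and 0.20 and 0.10 in the small, where 9 members are hosts. None of these splits was tested. Members lie on 19 chromosomes, with 14 on chromosome 7, among them Rps19, Rpl28 and Rpl13a.

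Ribosomal proteins whose symbols the rule misses behaved within the range of the members. Of 6 tested, 0 passed by edgeR, with a median log2 difference of 0.12. Rps3a1 had a log2 difference of 0.14, Rpl7l1 0.15 and Rpl22l1 0.09. Fau, a fusion with a ubiquitin-like protein, had -0.04. The ribosomal proteins of mitochondria, a separate set of nuclear genes, had 14 of 78 higher by edgeR (17.9%, near the 16.5% of all genes). Of them, 0 were lower (against 15.1%), and the median was 0.08. They did not share the library order of the cytosolic members. cKO 2 exceeded cKO 1 for 23 of 78, against 78 of 81 cytosolic members and 6887 of 13861 genes tested.

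Other genes of ribosome production and translation are given for the lists written for this purpose. Over all genes tested, 16.5% were higher and 15.1% lower, and the share of each list is given for comparison. Of 11 elongation factors, 3 rose (27.3%) and 1 fell (9.09%), with a median of 0.17. Eef1b2, Eef2 and Eef1g rose by 0.27, 0.23 and 0.20, and Eif5a2 fell by 0.33 on the log2 scale. Eef1a1, which delivers aminoacyl-tRNA and whose mRNA also has a 5′ TOP, had 12097 and 11945 CPM in WT and 13469.8 and 13987 CPM in cKO (log2 difference 0.19, edgeR adjusted p = 0.0516). Of 35 initiation factors, 3 rose (8.57%) and 1 fell (2.86%), both shares below those of all genes, with a median of 0.07. The rises were Eif2s2 (0.25), Eif3b (0.20) and Eif4g1 (0.17), and the fall was Eif1 (-0.28).

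Of 68 ribosome biogenesis factors, 8 rose (11.8%) and 2 fell (2.94%), again below the shares of all genes, with a median of 0.01. Dkc1, the pseudouridine synthase of snoRNPs, rose by 0.59, the nucleolar chaperone Npm1 by 0.35 and the rRNA methyltransferase Nop2 by 0.37, while the kinase Riok1 fell by 0.52 on the log2 scale. Of 20 genes for RNA polymerase I and its factors, 3 rose (15%) and 2 fell (10%), near or below the shares of all genes, with a median of -0.01. Polr1e and Polr1d were higher by 0.38 and 0.28, and Polr1h and Polr2e were lower, with log2 fold changes of -0.56 and -0.30. Of 28 genes of mTORC1, 5′ TOP control and the Rps6k kinase family, 3 rose (10.7%) and 5 fell (17.9%), near the shares of all genes, with a median of -0.02. The falls included Rptor (-0.28), the subunit that brings substrates to mTORC1, Larp1b (-0.47), Rps6kc1 (-0.43) and Rps6ka1 (-0.34), a kinase driven by ERK. The rises were the mTORC1 substrates Rps6kb1 (0.21) and Eif4ebp1 (0.55), and Rps6ka2 (0.47). Of 14 ribosome-associated and stress factors, 6 rose (42.9%) and 1 fell (7.14%), with a median of -0.06. The rises included Rack1 (0.21), which sits on the small subunit, Naca (0.28), Pelo (0.50) and Trp53 (0.21). Myc, the growth regulator, had 102 and 117 CPM in WT and 179 and 171 CPM in cKO (log2 fold change 0.68, edgeR adjusted p = 0.00509), and its part in the members' values was not tested.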

How the data were processed

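The authors deposited whole-number read counts per gene. Reads were mapped to mm10, per the submitters' processing notes. Not given in the sources used here are aligner, counter, annotation release and strand setting. Genes were kept by filterByExpr (minimum count 10, total 15), scaled by TMM and compared with edgeR 4.0.16 in R 4.3.3 (quasi-likelihood F test, group alone, 2-sided, Benjamini-Hochberg over all 13861 genes, threshold 0.05). This procedure was tested on simulated data. SE was computed as the size of a log2 fold change over the square root of its F statistic. 1 read was worth 0.0288 to 0.0344 CPM, and a count of 0 allows up to 3 reads. Alternatives used RLE, upper-quartile, non-member and member scaling, DESeq2 1.42.0, limma-voom (limma 3.58.1), other filters, a replicate block and the removal of each library.

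Named members were the called ones (up to 12 per direction by p), the 5 highest per length, those with textbook roles, paralogs and those failing the filter. Rps12, Rpl7, Rpl6, Rpl38 and Rps16 were named after their values were seen. In other lists up to 4 genes were named by smallest p, and Eef1a1, Myc, Rps6kb1, Rps6ka2 and Eif4ebp1 after their values were seen. The values of some genes that this rule takes in are not reported here. Members and lists were chosen with earlier results of these data known.

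All 82 members matched RefSeq (GRCm38.p6) by gene number, which gave coordinates and promoters. Transcripts came from GENCODE M21, and every 50-base stretch of a member's transcript was looked for in the transcripts of all other genes.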

Additional observations from a re-analysis of the deposited data

How the results depend on the processing

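With 2 libraries per group, single calls were unstable, and medians also depended on which library was left out. Higher members numbered 21 in the reported fit (25.9%, against 16.5% of all genes). They numbered 11 under RLE (13.6%, against 15.4%) and 32 under upper-quartile scaling (39.5%, against 18.4%). Leaving aside the block and the removal of a library, 11 higher and 2 lower members were called under every planned setting. Rps19, Rps20, Rpl28, Rpl3 and Rps27 were among them. The same count over all genes is not given here, so these members are not set against a background. Leaving out 1 library at a time gave 1 to 6 higher and 0 to 0 lower members, and medians of 0.071 to 0.17 for the large and 0.075 to 0.16 for the small subunit. Those fits have 1 library in a group, which is assumed to vary like the other group. The labels do not say what a replicate number shares. Deviations of WT 1 and cKO 1 from their group means correlated at -0.32 over 13861 genes and 0.44 over the 81 members. With 2 libraries per group the deviations mirror each other, so these values cannot show whether a number marks something shared. With the replicate number as a block, 3 members were higher (3.70%, against 8.3% of all genes) and 0 lower (against 8.23%). With crossed numbers (chosen after the data were seen) 47 members were higher (58.0%, against 25.4% of all genes) and 2 lower (against 23%). Scaling on the members, also chosen after the data were seen, gave 2 higher and 3 lower members, and medians of 0.000145 for the large and -0.015 for the small subunit, since it sets the body of members to about 0. DESeq2 (19 higher), limma-voom (23), no filter (24), a filter of 5 CPM in 2 libraries (21) and non-member scaling (20) stayed within 1.5 times, each with 2 lower. The shares over all genes for these settings and for scaling on the members are given above. No called member changed sign under any setting.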
